A study of Homo sapiens with 8 samples.

Results

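Mitochondrial ribosomal proteins are the proteins that join mitochondrial rRNA to form the ribosome inside mitochondria. The members described here are the genes whose GENCODE release 44 symbol is MRPL or MRPS followed by a number and, in some, a letter, together with DAP3, a subunit whose symbol does not follow that pattern. Of the 79 protein-coding genes with such a symbol, 77 were listed in at least 1 library, among 12256 genes listed in any library. They comprised 48 MRPL genes, named for the large subunit, and 29 MRPS genes with DAP3, named for the small subunit. MRPL30 and MRPS17 were listed in none of the libraries. The symbols are not a perfect guide to the particle, since the proteins of MRPS30 and MRPS18A sit in the large subunit and MRPS36 is now also named KGD4, for a subunit of the alpha-ketoglutarate dehydrogenase complex.

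The values came from ribosome profiling, which sequences the mRNA fragments that ribosomes shield from nuclease, in wild-type HEK293T cells, a human embryonic kidney line carrying the SV40 large T antigen. Cells were kept overnight in medium with all amino acids (Suff) or in the same medium without arginine (Arg-), leucine (Leu-) or methionine (Met-), and every medium, Suff included, was built from amino acid-depleted DMEM with dialysed serum. Each of these 4 media was sampled in cells pre-treated with cycloheximide, a drug that stalls elongating ribosomes, and in untreated cells, so that the 8 libraries hold 1 per condition. No value therefore has a replicate error and no difference was tested. HEK293T is 1 immortalised line, and the cells of a dish were lysed together, so each value is an average over many cells.

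Human mitochondria keep a small genome that encodes core subunits of the respiratory chain, and the mitochondrial ribosome translates those few mRNAs. Its own proteins are all encoded in the nucleus, translated by cytosolic ribosomes and imported, most of them by means of a cleavable, positively charged N-terminal targeting peptide. Some of these proteins descend from those of bacterial ribosomes, and others were added during the evolution of mitochondria. Footprints on their mRNAs come from cytosolic ribosomes that were making these proteins when the cells were lysed.

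Footprint density was given as RPKM, which divides the reads within a coding sequence by its length and by the library's reads within all coding sequences. Every value is thus relative to its own library. A change in translation shared by all mRNAs, or in the number of cells, does not show in it. Reads on coding sequences numbered 538222 to 6434043 per library with cycloheximide, with Met- the shallowest, and 1302523 to 3139745 without it. An mRNA was listed only from 64 reads with cycloheximide and from 5 reads without it, so an unlisted mRNA is below that minimum and not at 0. No matched mRNA abundance was analysed here, so mRNA level and ribosome load per mRNA cannot be told apart in any value below. Of the markers used to check the cell line, VIM and NEFM were listed in all 8 libraries, VIM at 97.6 to 626 RPKM, whereas PTPRC, ALB, KRT5 and HBB, markers of blood, liver, keratinocytes and red cells, were listed in none. KRT8 was listed only without cycloheximide, at 8.9 to 18.0 RPKM, and the fibroblast gene COL1A1 was listed at 20.2 RPKM in Suff with cycloheximide and at 1.6 to 4.2 RPKM without it.

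The first 30 codons of 6 members are shown because these mRNAs are described below. This stretch usually holds the mitochondrial targeting peptide, in which arginine and leucine, both starved for in this experiment, are common. MRPL42 and MRPL51 were the members at least 2-fold below Suff in both series in Arg-, MRPL20 was the member at least 2-fold below Suff in both series in Leu-, DAP3 and MRPL40 were above Suff in all 6 comparisons, and MRPS12 had the lowest mean ratio in Leu-. At least 2-fold below Suff in both series were 2 of 73 members in Arg-, beside 182 of 4755 mRNAs at large. In Leu- it was 1 of 73 members, beside 64 of 4861 mRNAs. Both counts were thus near the background. The bases are those of the GENCODE transcripts on GRCh38, and capitals mark the leucine and arginine codons. The coding regions, from start to end with introns between their exons, lie at chr1:1405620-1407217 on the minus strand (MRPL20, 3 coding exons), chr12:93469286-93488370 on the plus strand (MRPL42, 5), chr12:6492274-6493136 on the minus strand (MRPL51, 3), chr22:19432555-19435959 on the plus strand (MRPL40, 4), chr1:155709780-155738239 on the plus strand (DAP3, 12) and chr19:38931295-38932697 on the plus strand (MRPS12, 2).
MRPL20: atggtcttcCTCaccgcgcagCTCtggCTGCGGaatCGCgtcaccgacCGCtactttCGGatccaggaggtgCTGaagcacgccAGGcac
MRPL42: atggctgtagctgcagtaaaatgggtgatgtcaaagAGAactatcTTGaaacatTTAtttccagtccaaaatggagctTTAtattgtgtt
MRPL51: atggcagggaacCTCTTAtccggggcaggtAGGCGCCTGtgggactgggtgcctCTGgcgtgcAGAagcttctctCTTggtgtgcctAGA
MRPL40: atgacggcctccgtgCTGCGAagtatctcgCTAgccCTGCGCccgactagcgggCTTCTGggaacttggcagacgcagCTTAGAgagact
DAP3: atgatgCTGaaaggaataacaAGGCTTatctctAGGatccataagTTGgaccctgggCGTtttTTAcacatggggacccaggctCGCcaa
MRPS12: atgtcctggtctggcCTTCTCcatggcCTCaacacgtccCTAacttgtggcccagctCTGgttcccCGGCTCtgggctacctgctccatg

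Over the 77 members the median share of leucine and arginine codons was 26.7% in the first 30 codons and 17.7% in the rest of the coding sequence, and it was higher in the first stretch for 64 members (83.1%). Over 11038 mRNAs the same medians were 16.7% and 15.5%, and 52.7% of the mRNAs had the higher share in the first stretch. MRPL20 had 4 leucine and 5 arginine codons there, MRPL51 5 and 4, MRPL40 6 and 3, DAP3 4 and 4, and MRPS12 6 and 1, whereas MRPL42 had 3 and 1. Across members, the leucine share of the first 30 codons had a Spearman correlation with the ratio of 0.07 in Leu- with cycloheximide and 0.09 without it, and the arginine share one of -0.31 and -0.19 in Arg- and of -0.27 and -0.25 in Leu-. The ratio is that of a starved library over Suff, across 73 to 77 members that share those libraries. The members also had shorter coding sequences than mRNAs at large, with a median of 606 bases against 1434, and more arginine, with a median of 8.56% of residues against 5.63%. Their medians of GC content (52.5% against 52.2%), leucine (10.2% against 9.76%) and methionine (2.24% against 2.13%) lay close to those of all mRNAs.

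In sufficient medium the members had high footprint densities. Their median density in Suff was 373 RPKM with cycloheximide, where the median of all listed mRNAs was 59.3, and 203 RPKM without it, where that median was 17.6. The members' median stood at percentile 86.7 of all listed mRNAs with cycloheximide and at percentile 91.0 without it. Shorter coding sequences, as the members have, went with higher densities in Suff over all mRNAs. The Spearman correlation of length with density was -0.82 with cycloheximide and -0.56 without it. The part of length in the members' levels was not tested. The mRNAs of cytosolic ribosomal proteins, the counterpart family, had medians of 2980 and 3291 RPKM in the same libraries. With cycloheximide the members in Suff ran from 31.6 RPKM for MRPS9 to 1394 RPKM for MRPL55, and without it from 17.7 RPKM for MRPS24 to 1399 RPKM for MRPS21. The mRNAs for the parts of a single particle thus spanned more than an order of magnitude in footprint density within a library. For MRPL55 and MRPS24 the highest transcript was not the same one in both series, so these ends of the range depend on the transcript used.

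**Figure D1:**
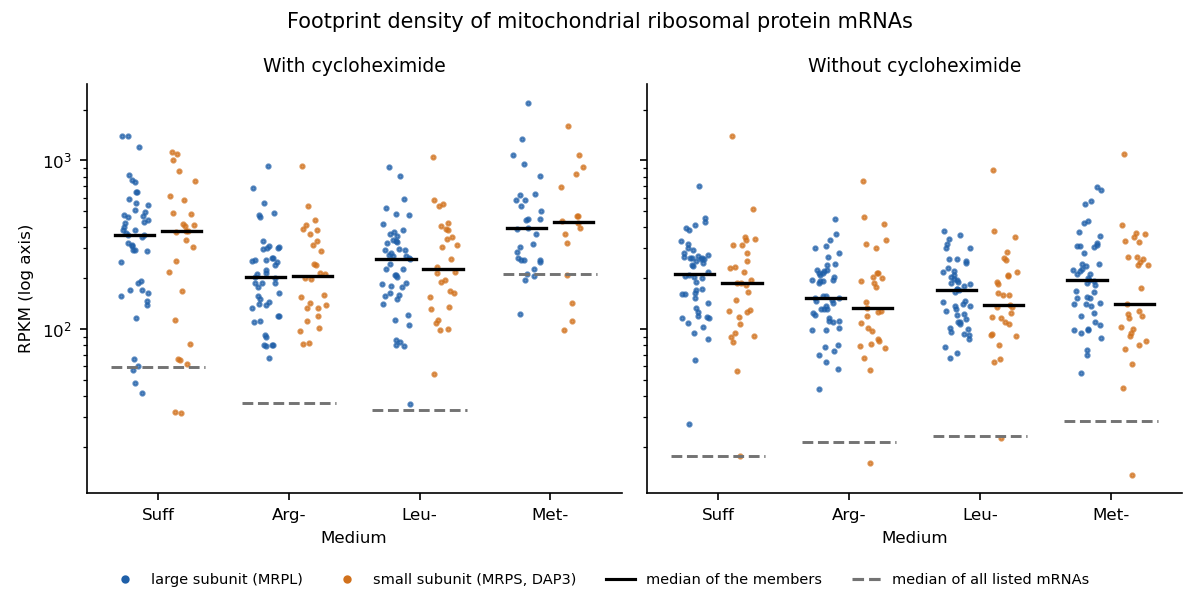
Footprint density (RPKM, log axis) of each listed mitochondrial ribosomal protein mRNA in each of the 8 libraries, with 1 point per mRNA, large-subunit and small-subunit members in separate colours a bar at the members' median and a dashed line at the median of all listed mRNAs. The members' median lies between 202 and 411 RPKM with cycloheximide and between 149 and 203 RPKM without it, and only 46 members are listed in Met- with cycloheximide.

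The members with the highest mean density in Suff were MRPS21, MRPL51, MRPL55, MRPL52 and MRPS34. MRPS21, a small-subunit protein with a bacterial relative, had 1125 RPKM in Suff, 930 in Arg- and 1047 in Leu- with cycloheximide and was unlisted in Met-, and had 1399 in Suff, 757 in Arg-, 881 in Leu- and 1085 in Met- without it. Its density was highest in Suff in both series. In Arg- and Leu- the difference was wider without cycloheximide than with it. In Met- with cycloheximide the read minimum puts MRPS21 at least 2.47-fold below Suff, beside a log2 ratio of -0.37 without it. MRPL55 had 1394, 919, 912 and 2185 RPKM in Suff, Arg-, Leu- and Met- with cycloheximide and 432, 452, 340 and 698 without it. Thus MRPL55 was highest in Met- in both series. Its highest transcript in Suff was not the same one in both series, so its mean in Suff joins different transcripts. MRPL52, a large-subunit protein specific to mitochondria, had 1205, 689, 806 and 504 RPKM in the same order with cycloheximide and 457, 364, 359 and 322 without it, and was lowest in Met- and highest in Suff in both. MRPS34, a small-subunit protein specific to mitochondria, had 1097, 313, 554 and 1074 RPKM with cycloheximide and 511, 420, 352 and 363 without it, so that Suff was again highest.

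The lowest means in Suff were those of MRPL1, MRPS9 and DAP3. MRPL1, the relative of a conserved bacterial large-subunit protein, had 48.1, 89.7 and 80.0 RPKM in Suff, Arg- and Leu- with cycloheximide, was unlisted in Met-, and had 65.8, 63.5, 72.4 and 69.9 RPKM in Suff, Arg-, Leu- and Met- without it. Without cycloheximide its level thus hardly moved. MRPS9, a conserved protein of the small-subunit head, had 31.6, 120 and 135 RPKM in Suff, Arg- and Leu- with cycloheximide, was unlisted in Met-, and had 89.1, 108, 93.7 and 44.5 RPKM without it.

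The levels were then compared between each starved library and the Suff library of the same series, as log2((RPKM + 1)/(RPKM in Suff + 1)), over mRNAs listed in both libraries with a mean RPKM of at least 10. This ratio slightly understates differences of low mRNAs. The 3 comparisons of a series share 1 Suff library, so their directions are not independent of each other. The median ratio of all mRNAs was itself off 0 in several comparisons, at -0.23 in Arg-, 0.02 in Leu- and 0.89 in Met- with cycloheximide and at -0.02, 0.14 and 0.32 without it, so each median of the members is given beside it.

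In Arg- the footprint density of most mitochondrial ribosomal protein mRNAs was below that in Suff. With cycloheximide the median log2 ratio of 73 members was -0.73, or -0.50 relative to the median of all mRNAs, and 18 members lay above Suff. At least 2-fold differences numbered 5 higher and 24 lower among the members, against a background of 16.6% of 5076 mRNAs higher and 19.7% lower. Without cycloheximide the median of 77 members was -0.30, or -0.27 relative to all mRNAs, with 14 members above Suff. None was at least 2-fold higher and 4 were at least 2-fold lower (MRPL12, MRPL42, MRPL51 and MRPS28), against 8.23% of 7448 mRNAs higher and 5.95% lower. The members thus shifted down as a group in the second series with few of them passing 2-fold, and 79.2% of them lay below the all-mRNA median.

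In Leu- too, most members were below Suff. With cycloheximide the median of 74 members was -0.34, or -0.36 relative to all mRNAs, with 4 members at least 2-fold higher and 17 lower against a background of 12.1% and 7.27% of 5210 mRNAs. Without cycloheximide the median of 76 members was -0.33, or -0.47 relative to all mRNAs, with no member at least 2-fold higher and 2 lower (MRPL13 and MRPL20) against 6.85% and 2.06% of 7558 mRNAs. Of these 76 members, 86.8% lay below the all-mRNA median. The share of members past 2-fold was near the background on the lower side in this series. With ratios centred on the all-mRNA median 7 of 76 were at least 2-fold lower. No share over all mRNAs was computed for centred ratios.

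In Met- without cycloheximide the RPKM of the members stayed closer to that in Suff, with a median log2 ratio of -0.11 over 77 members and 32 of them above Suff. Relative to the median of all mRNAs, which was 0.32, the members' median was -0.43. MRPL40 and MRPL46, both of the central protuberance of the large subunit, were at least 2-fold higher, and MRPL21 and MRPS18C at least 2-fold lower, against a background of 20.2% of 7884 mRNAs higher and 5.34% lower. Upward differences of 2-fold were thus seen in 2 of 77 members, in a comparison where 20.2% of mRNAs had one.

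In Met- with cycloheximide only 46 members were listed in both libraries, and the outcome depended on how unlisted mRNAs were treated. Over the listed 46 the median was 0.20, against 0.89 over all 1890 mRNAs listed in both, with 8 members at least 2-fold higher and 4 lower against a background of 46.7% and 9.79%. An mRNA had to reach 64 reads in this shallow library to be listed, which leaves out mRNAs that were lower there. Among mRNAs whose level in Suff was at least 2-fold above the Met- read minimum, with unlisted ones set at that minimum, the median of 28 members was -0.58 and that of 692 mRNAs was -0.93, with 2 members higher and 8 lower against a background of 6.07% and 48.7%. By the first count the members lay below the median of all mRNAs and by the second above it, so no position of the family among all mRNAs can be given for Met- with cycloheximide. Of the 31 unlisted members, 28 were listed in Suff, and for 14 of them the read minimum puts the level below Suff, at least 2-fold so for 4, at least 2.68-fold lower for MRPS33, 2.67-fold for MRPL42, 2.47-fold for MRPS21 and 2.14-fold for MRPL14.

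**Figure D2:**
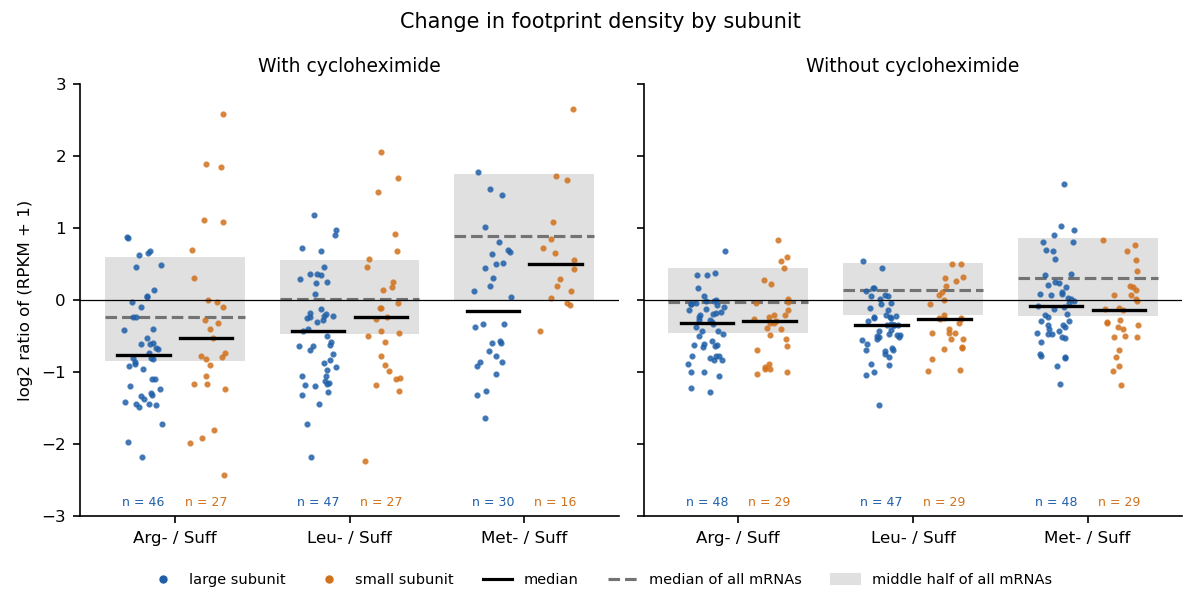
The log2 ratio of each member over Suff in the 6 comparisons, with 1 point per mRNA, large-subunit (MRPL) and small-subunit (MRPS, DAP3) members side by side, bars at their medians, a dashed line at the median of all mRNAs and grey from their lower to their upper quartile. In Arg- with cycloheximide no large-subunit member reaches 2-fold above Suff while 5 of 27 small-subunit members do, beside 16.6% of all mRNAs. Without cycloheximide the points draw together around medians of -0.35 to -0.08.

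As a share of all reads on coding sequences, the family took less in Arg- and Leu- than in Suff in both series. The 76 members listed in all 4 libraries without cycloheximide held 1.07% of reads in Suff (95% exact binomial interval 1.06% to 1.08%), 0.857% in Arg- (0.843% to 0.871%), 0.858% in Leu- (0.843% to 0.873%) and 1.08% in Met- (1.06% to 1.09%). With cycloheximide the 73 members listed in Suff, Arg- and Leu- held 1.62% (1.61% to 1.64%), 1.0% (0.994% to 1.01%) and 1.20% (1.19% to 1.21%). The 46 members listed in all 4 libraries of that series held 1.26% in Suff and 1.47% in Met- (1.44% to 1.51%), a set that the Met- read minimum selected. These intervals cover counting error alone, and reads without molecular identifiers are not independent molecules.

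The large and small subunits moved to a similar extent without cycloheximide. There the median ratios of the MRPL and MRPS members were -0.31 and -0.28 in Arg-, -0.35 and -0.26 in Leu-, and -0.08 and -0.14 in Met-. The differences between these medians, -0.03, -0.09 and 0.05, were small beside the SD over the members of a subunit, which was 0.39 to 0.58. In Arg- 41 of 48 MRPL members and 22 of 29 MRPS members lay below Suff, in Leu- 38 of 47 and 20 of 29, and in Met- 27 of 48 and 18 of 29.

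With cycloheximide the large subunit was the lower one in each comparison, though again within the spread over members. The medians were -0.76 for MRPL and -0.51 for MRPS in Arg-, -0.43 and -0.23 in Leu-, and -0.14 and 0.50 in Met-, where 15 of 30 MRPL and 3 of 16 MRPS members lay below Suff. The SD over members was 0.75 to 0.90 for MRPL and 0.80 to 1.24 for MRPS. In Arg- with cycloheximide 16 of 46 MRPL members were at least 2-fold lower (34.8%) and none at least 2-fold higher. Of 27 MRPS members 8 were lower (29.6%) and 5 higher (18.5%), namely DAP3, MRPS9, MRPS18B, MRPS22 and MRPS27. Over all mRNAs 19.7% were at least 2-fold lower and 16.6% higher, so the MRPS share on the higher side was near the background. When MRPS30 and MRPS18A, at 1.10 and 0.86 in Met-, were counted with the large subunit where their proteins sit, the Met- difference went from -0.65 to -0.28.

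Sorted by evolutionary origin, the classes differed little without cycloheximide. The subunits with bacterial relatives had median ratios of -0.27 in Arg-, -0.41 in Leu- and -0.11 in Met- for the large subunit and -0.23, -0.26 and -0.27 for the small one. Those counted as specific to mitochondria had medians of -0.42, -0.34 and -0.04 for the large subunit and -0.28, -0.24 and 0.01 for the small one. MRPS18A (large) and MRPS18B (small) were counted there, whereas MRPS18C, which shares their name, was counted with the bacterial relatives. The classes are thus not a strict split by origin. With cycloheximide the mitochondria-specific small-subunit proteins had medians of -0.06 in Arg-, 0.07 in Leu- and 0.20 in Met-. The other 3 classes lay between -0.80 and -0.73 in Arg-, between -0.49 and -0.34 in Leu- and between -0.46 and 0.48 in Met-. The 10 mRNAs of that class in Arg- ran from -2.43 (MRPS26) to 2.59 (DAP3), a spread that takes in the medians of the other classes.

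Of the functional sites of the large subunit, the stalk binds the translation factors, the exit tunnel releases the new protein toward the inner membrane, and the central protuberance contacts tRNA and the small subunit. Without cycloheximide the 4 stalk members had medians of -0.22 in Arg-, -0.41 in Leu- and -0.15 in Met-, the 6 exit tunnel members -0.06, -0.28 and -0.11, and the 8 central protuberance members -0.31, -0.28 and 0.05. With cycloheximide the medians in Arg-, Leu- and Met- were -0.66, -0.82 and -0.11 for the stalk, 0.02, 0.04 and -0.85 for the exit tunnel and -0.84, -0.41 and -0.12 for the central protuberance. The exit tunnel members were thus above those of the central protuberance in Arg- and Leu- and below them in Met-, where 3 and 6 mRNAs were compared. With 2 to 8 genes in a site, these medians rest on few mRNAs.

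**Figure D3:**
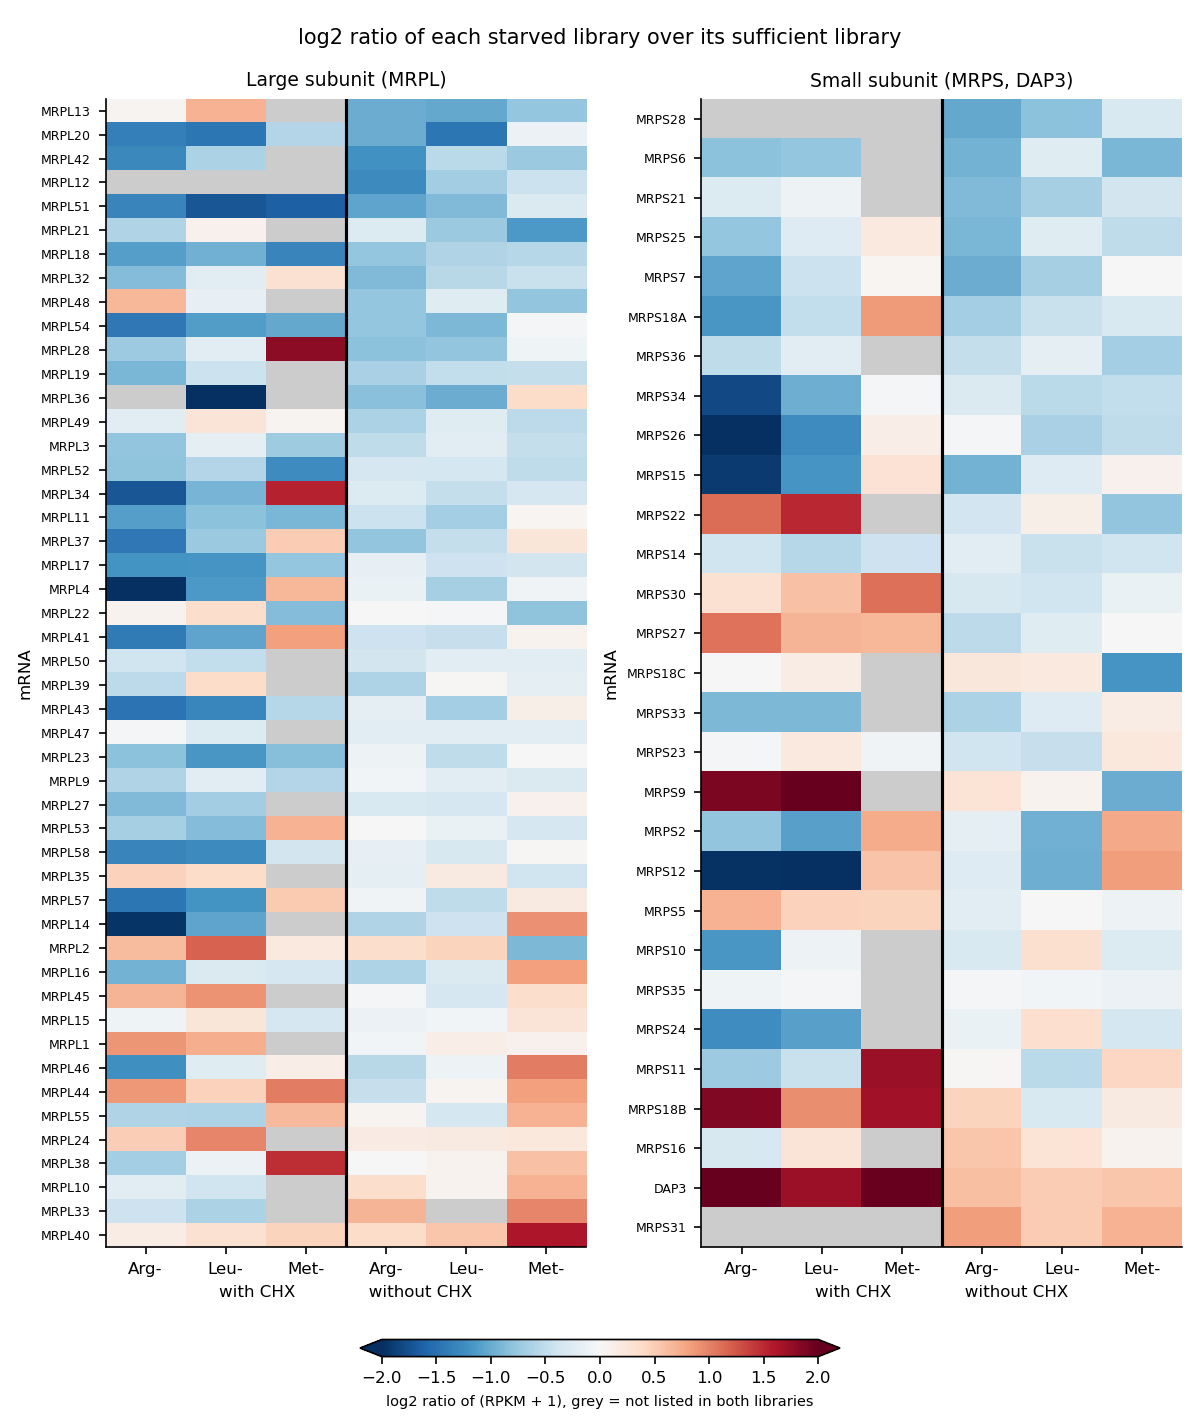
The log2 ratio of every member over Suff in each of the 6 comparisons, blue for lower and red for higher than Suff and grey where the mRNA was not listed in both libraries, with the large subunit on the left and the small subunit on the right, ordered by the mean ratio without cycloheximide. Blue cells prevail in Arg- and Leu-, while DAP3 and MRPL40 are red in all 6 columns and MRPL51 and MRPL18 are blue in all 6.

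Among the 73 members listed in all 4 libraries concerned, those with the lowest mean ratios in Arg- over both series were MRPS15, MRPL14 and MRPL42. MRPL36, unlisted in Arg- with cycloheximide, was left out of this order. MRPS15, an rRNA-binding protein of the small subunit, had 381, 101, 168 and 468 RPKM in Suff, Arg-, Leu- and Met- with cycloheximide and 165, 85.0, 138 and 175 without it. Arg- was its lowest library in both series, with log2 ratios of -1.91 and -0.95, and its Met- level was above Suff in both. MRPL14, a conserved protein at the interface between the subunits, had 586, 150 and 282 RPKM in Suff, Arg- and Leu- with cycloheximide, was unlisted in Met-, and had 294, 193, 220 and 554 RPKM without it. Its ratio in Arg- was -1.96 with cycloheximide and -0.61 without it, and without cycloheximide its Met- level was above Suff, at a log2 ratio of 0.91.

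MRPL42, a mitochondria-specific protein of the large subunit, had 744, 305 and 482 RPKM in Suff, Arg- and Leu- with cycloheximide, was unlisted in Met-, and had 281, 121, 194 and 167 RPKM in Suff, Arg-, Leu- and Met- without it. Its ratios in Arg- were -1.29 with cycloheximide (95% counting interval -1.44 to -1.14) and -1.21 without it (-1.56 to -0.89), and every starved library lay below Suff. MRPL51, another mitochondria-specific large-subunit protein, had 1387, 557, 422 and 445 RPKM in Suff, Arg-, Leu- and Met- with cycloheximide and 703, 339, 380 and 577 without it. Its ratios in Arg- were -1.31 (-1.43 to -1.20) and -1.05 (-1.28 to -0.84), and it was below Suff in all 6 comparisons. MRPL51 was at -1.72 and -0.89 in Leu- and at -1.64 and -0.28 in Met-, so the sizes differed between the series most in Met-.

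Among the 73 members listed in all 4 libraries concerned, those with the lowest mean ratios in Leu- were MRPS12, MRPL36 and MRPL20. MRPL20, whose bacterial relative binds rRNA early in assembly of the large subunit, had 555, 214, 204 and 368 RPKM in Suff, Arg-, Leu- and Met- with cycloheximide and 263, 131, 95.6 and 243 without it. Its ratio in Leu- was -1.44 with cycloheximide (95% counting interval -1.61 to -1.28) and -1.45 without it (-1.85 to -1.08), where 67 reads in Leu- stood against 386 in Suff. Leu- was its lowest library in both series and Met- its starved library closest to Suff. MRPL36, a very small conserved protein, had 164 RPKM in Suff and 35.7 in Leu- with cycloheximide, and 274, 153, 137 and 354 RPKM in Suff, Arg-, Leu- and Met- without it. It was unlisted in Arg- with cycloheximide, where the read minimum puts it at least 3.97-fold below Suff, and at -0.83 in Arg- without it.

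MRPS12, the relative of the bacterial decoding-centre protein S12, had 618, 156, 131 and 916 RPKM in Suff, Arg-, Leu- and Met- with cycloheximide and 231, 194, 117 and 416 without it. Its order was the same in both series, with Leu- lowest, then Arg-, then Suff, and Met- highest. The log2 ratio in Leu- was -2.22 (95% counting interval -2.42 to -2.04) with cycloheximide and -0.98 (-1.37 to -0.61) without it, and in Met- it was 0.57 (0.33 to 0.80) and 0.84 (0.59 to 1.10). No counting interval of these 4 values held 0.

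Among the 46 members listed in all 4 libraries concerned, the lowest means in Met- were those of MRPL51, MRPL18 and MRPL52. MRPL42 was left out of this order as it has only the bound given above with cycloheximide, beside -0.74 without it. MRPL18, a conserved protein of the central protuberance, had 644, 301, 330 and 258 RPKM in Suff, Arg-, Leu- and Met- with cycloheximide and 333, 194, 219 and 223 without it. All its starved libraries lay below Suff, with ratios in Met- of -1.32 and -0.57. The ratios of MRPL52 in Met- were -1.26 and -0.50.

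DAP3, a GTP-binding protein of the small subunit also studied as a mediator of cell death, had the highest mean ratio over both series in each starvation among the members so listed. With cycloheximide it had 32.4 RPKM in Suff, 200.1 in Arg-, 108 in Leu- and 210.1 in Met-, and without it 94.5, 144, 135 and 140 RPKM. Suff was the lowest library in both series, and the starved libraries of the second series differed little among themselves. The log2 ratios with cycloheximide were 2.59 in Arg- (95% counting interval 2.33 to 2.94), 1.71 in Leu- (1.43 to 2.05) and 2.66 in Met- (2.31 to 3.09), all against 99 reads in 1 Suff library. Without cycloheximide they were 0.605 (0.38 to 0.84), 0.51 (0.27 to 0.76) and 0.56 (0.32 to 0.81). The highest transcript of DAP3 was not the same one in the Suff libraries of the 2 series, so its densities are compared within a series only.

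MRPL40, a mitochondria-specific protein of the large subunit, had 427, 472, 524 and 583 RPKM in Suff, Arg-, Leu- and Met- with cycloheximide and 216, 281, 318 and 665 without it. Its order was the same in both series, with Suff lowest and Met- highest, and the difference was widest in Met- without cycloheximide, at a log2 ratio of 1.62 (95% counting interval 1.43 to 1.81). MRPS11, a conserved protein of the small-subunit platform and the second highest in Met-, had 479, 289, 350.4 and 1587 RPKM in Suff, Arg-, Leu- and Met- with cycloheximide and 196, 199.5, 135 and 261 without it. Its Met- ratios were 1.73 and 0.41.

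MRPS18B and MRPS9 followed DAP3 in Arg-. MRPS18B, a small-subunit protein, had 114, 413, 216 and 365 RPKM in Suff, Arg-, Leu- and Met- with cycloheximide and 234, 320.4, 189 and 266 without it. It was highest in Arg- in both series, with ratios of 1.86 and 0.45, whereas in Leu- it was above Suff with cycloheximide (0.92) and below it without (-0.31). MRPS9 was at 1.89 in Arg- and 2.06 in Leu- with cycloheximide, at 0.28 and 0.07 without it, and at -0.99 (95% counting interval -1.40 to -0.62) in Met- without it. MRPL2, a conserved protein near the peptidyl transferase centre, had 169, 263, 387 and 195 RPKM in Suff, Arg-, Leu- and Met- with cycloheximide and 189, 241, 258 and 100.4 without it. It was highest in Leu- in both series, at ratios of 1.19 and 0.45, and in Met- without cycloheximide it was at -0.90 (-1.21 to -0.62).

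Members with well-known roles in the particle gave mixed values. MRPL12, the stalk protein that contacts elongation factors, was unlisted in every library with cycloheximide and had 142, 58.2, 87.3 and 105 RPKM in Suff, Arg-, Leu- and Met- without it. At -1.28 (95% counting interval -1.73 to -0.87) in Arg- it was the lowest member of that comparison. MRPL45, which anchors the ribosome to the inner membrane, had 41.7, 67.6 and 78.9 RPKM in Suff, Arg- and Leu- with cycloheximide, was unlisted in Met-, and had 119, 117, 93.6 and 153 RPKM without it. Its Leu- ratio was thus on opposite sides of Suff in the series, at 0.90 and -0.34. MRPL58, a peptidyl-tRNA hydrolase that became part of the ribosome, had 506, 202, 209 and 391 RPKM with cycloheximide and 152, 136, 122 and 155 without it. Its ratios were -1.32 in Arg- and -1.27 in Leu- with cycloheximide against -0.16 and -0.32 without it.

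The series with and without cycloheximide share no library, so a member's ratios in them can be set side by side. In Arg- 50 of 73 members were below Suff in both series, 8 above in both and 15 on opposite sides. In Leu- these counts were 46, 13 and 14 of 73, and in Met- 12, 15 and 19 of 46. Over all mRNAs the counts were 2150 below in both, 1229 above in both and 1376 on opposite sides of 4755 in Arg-, 1623, 1837 and 1401 of 4861 in Leu-, and 376, 888 and 528 of 1792 in Met-. Across members the Pearson r between the series was 0.41 in Arg-, 0.62 in Leu- and 0.36 in Met-, beside 0.55, 0.61 and 0.63 over 4755, 4861 and 1792 mRNAs. These are correlations across genes, which share their libraries and are not independent replicates. No member was at least 2-fold off Suff in opposite directions in the series. Across all 6 comparisons, 11 of the 46 members listed throughout were below Suff each time, namely MRPL3, MRPL9, MRPL17, MRPL18, MRPL20, MRPL23, MRPL51, MRPL52, MRPL54, MRPS14 and MRPS34, and DAP3 and MRPL40 were above it each time. Some of these ratios were near 0, such as -0.001 for MRPL23 and -0.04 for MRPL54 in Met- without cycloheximide. The same counts over all mRNAs were not made, so these have no background beside them.

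**Figure D4:**
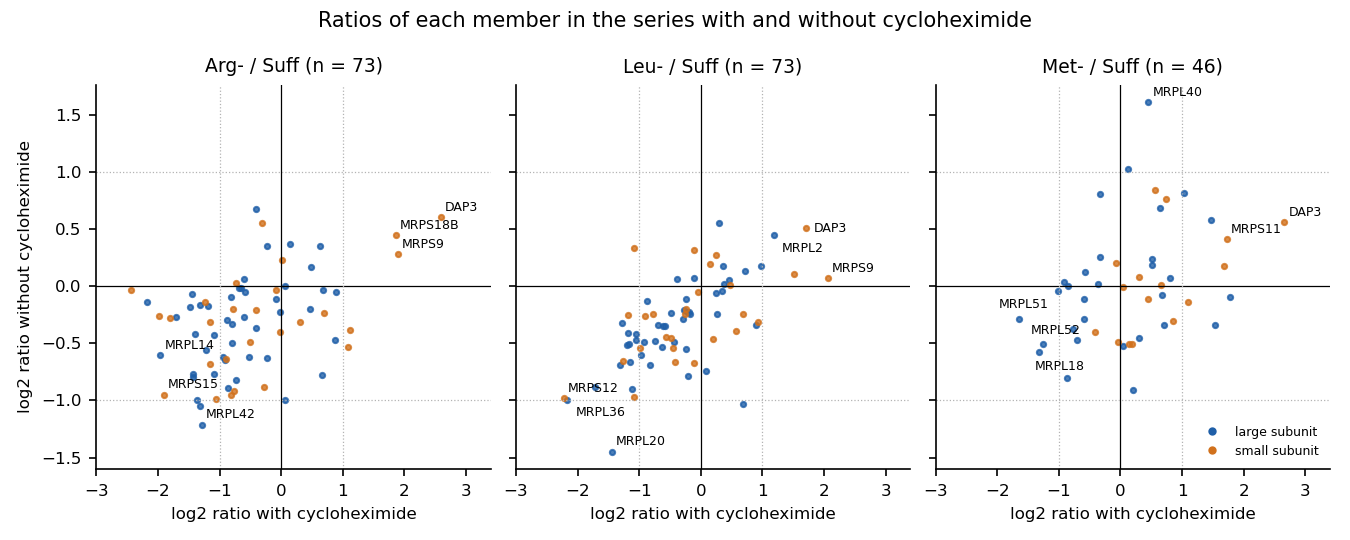
The log2 ratio of each member over Suff with cycloheximide (horizontal axis) against that without it (vertical axis), for Arg-, Leu- and Met-, with 1 point per mRNA and the members named by the rule labelled. In Arg- 50 of 73 points and in Leu- 46 of 73 lie in the lower left quadrant, while in Met- 19 of 46 lie in the quadrants of opposite sign.

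Ratios spread more widely with cycloheximide than without it, from -2.43 (MRPS26) to 2.59 (DAP3) in Arg- in the first series and from -1.28 (MRPL12) to 0.84 (MRPS31) in the second. The series also differ in read minimum and depth, and whether duplicate reads were treated alike in them is not given in the sources used here. The part of these differences in the spread was not tested. Counting error was smaller than the spread of either series, with a median half-width of the 95% counting interval of 0.18 in Arg- with cycloheximide and 0.27 without it. Without cycloheximide the interval lay below 0 for 40 members in Arg-, 44 in Leu- and 27 in Met-, lay above 0 for 8, 6 and 17, and held 0 for 29, 26 and 33. The intervals were set against 0 and not against the all-mRNA median. No such intervals were made for mRNAs at large, so these counts have no background beside them. The highest transcript was another one in the Suff libraries of the 2 series for 21 of 74 members, among them DAP3, MRPS12, MRPL42 and MRPS24. MRPS24 was at 868 RPKM in Suff with cycloheximide and at 17.7 without it on different transcripts, so levels of such members do not compare across the series.

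Starved libraries of the second series were also compared directly, which leaves Suff out. Between Arg- and Leu- no member of 76 differed by 2-fold, against a background of 1.21% of 7705 mRNAs higher in Arg- and 3.56% lower. The members' median log2 ratio of Arg- over Leu- was -0.01, beside -0.15 over all mRNAs. Between Met- and Leu-, the median of Met- over Leu- was 0.22 (0.15 over all mRNAs), and 9 of 76 members were at least 2-fold higher in Met- and 3 lower, against a background of 10.1% and 4.86%. The higher ones were MRPS12 (1.82), MRPS2 (1.73), MRPL36 (1.36), MRPL20 (1.33), MRPL14 (1.33), MRPL46 (1.13), MRPL16 (1.10), MRPL40 (1.06) and MRPL55 (1.03). The lower ones were MRPS18C (-1.37), MRPL2 (-1.36) and MRPS9 (-1.06). Both counts lay near the background.

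Within the family, members with GC-rich coding sequences had the lower ratios in Arg- and Leu- with cycloheximide. With cycloheximide the Spearman correlation of GC content with the ratio across members was -0.52 in Arg- and -0.51 in Leu-, where over all mRNAs it was -0.38 and -0.35. In Met- it was 0.21 across members and 0.29 over all mRNAs. Without cycloheximide it was 0.09 in Arg-, -0.42 in Leu- and 0.19 in Met- across members, beside -0.07, -0.25 and -0.10 over all mRNAs. Across members the relation in Arg- was thus on opposite sides of 0 in the series. Among members above the median GC content, 19 of 36 were at least 2-fold below Suff in Arg- with cycloheximide, with a median of -1.08, and among those at or below it 5 of 37 were, with a median of -0.09. Over all mRNAs of any GC content 19.7% were, and no such share was computed for GC-rich mRNAs at large. In Leu- with cycloheximide the same medians were -0.82 and -0.04, and without it -0.46 and -0.24. These correlations run across mRNAs of the same pairs of libraries, with 46 to 77 members each, and the part of base composition in the ratios was not tested.

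**Figure D5:**
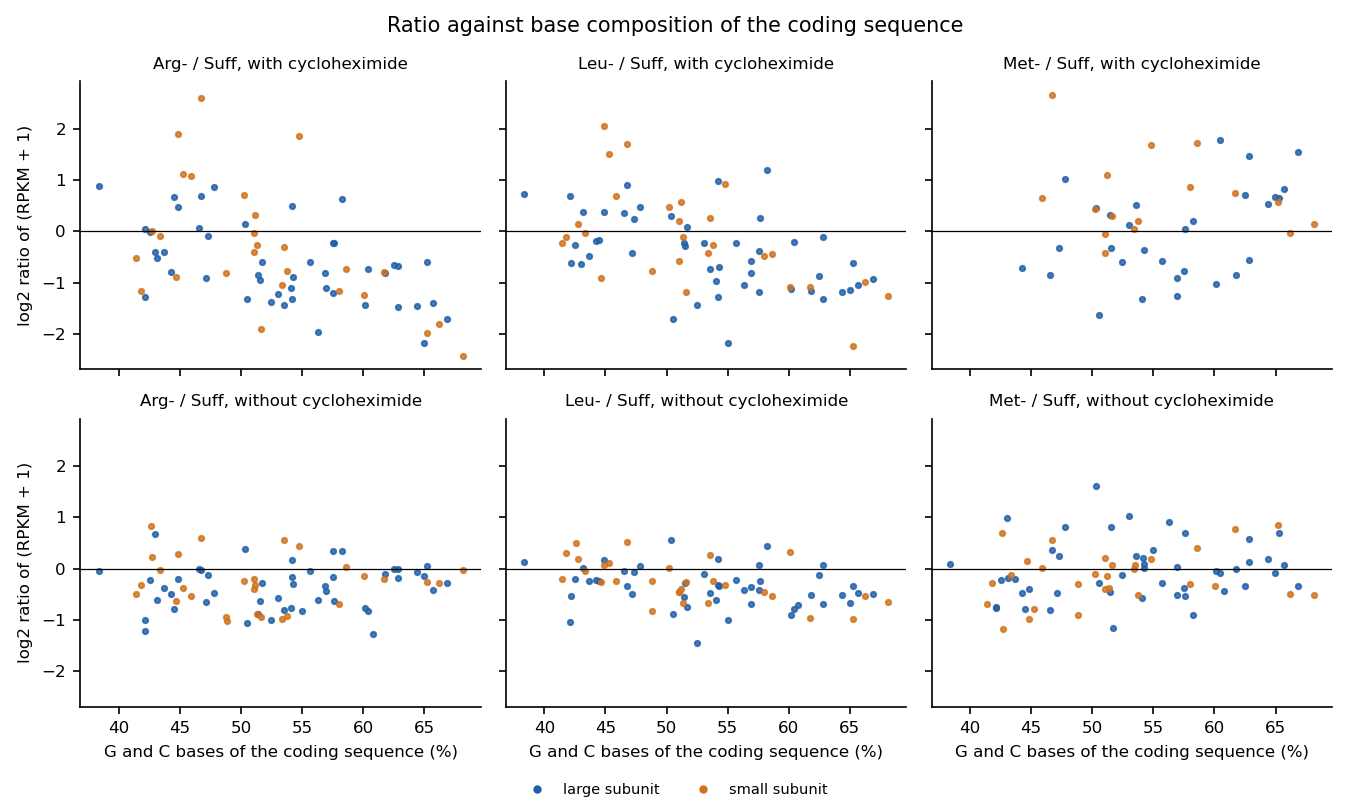
GC content of the coding sequence of each member (percent, of its highest transcript without cycloheximide) against its log2 ratio over Suff, for the 3 starvations with cycloheximide (upper row) and without it (lower row), with 1 point per mRNA coloured by subunit. In Arg- and Leu- with cycloheximide points fall toward the right (Spearman correlations of -0.52 and -0.51), and without it they do so in Leu- (-0.42).

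The share of leucine in the protein had a Spearman correlation of -0.04 with the ratio in Leu- with cycloheximide and 0.07 without it, and the share of methionine one of -0.26 and -0.19 in Met-. The share of arginine had one of -0.30 in Arg- with cycloheximide and 0.04 without it, and in Leu- it was -0.44 and -0.26. The arginine share thus went with the ratio at least as much in Leu- as in Arg-. The arginine values over all mRNAs were -0.12 and 0.03 in Arg- and -0.13 and -0.10 in Leu-. Those of leucine in Leu- were -0.08 and -0.001 over all mRNAs, and those of methionine in Met- were -0.15 and -0.08. Longer coding sequences went with higher ratios, at correlations of 0.31, 0.43 and 0.28 in Arg-, Leu- and Met- with cycloheximide and 0.22, 0.34 and 0.15 without it. Over all mRNAs these values were 0.47, 0.42 and 0.54 with cycloheximide and 0.36, 0.31 and 0.44 without it.

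The values of the rest of the mitochondrial translation system varied by class. The 4 subunits that carry other names had medians of -0.54 in Arg-, -0.54 in Leu- and 0.19 in Met- without cycloheximide. CHCHD1 was at -0.90, -0.51 and 0.20 and AURKAIP1 at -0.80, -0.60 and 0.18, whereas PTCD3, a large RNA-binding subunit, was at 0.77, 0.77 and 0.82. GADD45GIP1 was at -0.29, -0.56 and -0.60. PTCD3 was thus above Suff in each of these 3 comparisons, and with cycloheximide it was unlisted in Suff.

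Mitochondrial translation factors, 15 or 16 of which were compared without cycloheximide, had medians of -0.07 in Arg-, -0.04 in Leu- and 0.68 in Met-. GFM1, the elongation factor that drives translocation, was at 1.32, 0.79 and 1.09, and LRPPRC, which stabilises mitochondrial mRNAs, at 1.30, 0.84 and 1.20. Its partner SLIRP was at -1.21, -0.44 and -1.10, and the release factor MTRF1L at -1.40, -0.29 and -1.11. The initiation factor MTIF3 was at 0.52, 0.59 and 1.89, and the recycling factor MRRF at -0.33, -1.03 and -0.09. In Met- 5 of 16 factors were at least 2-fold higher and 2 lower, beside 20.2% and 5.34% of all mRNAs.

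Assembly and rRNA-modifying factors of the mitochondrial ribosome, 26 or 27 of which were compared, had medians of -0.03 in Arg-, 0.02 in Leu- and 0.70 in Met- without cycloheximide, and in Met- 9 of 26 were at least 2-fold higher and 1 lower, beside the same 20.2% and 5.34%. NGRN was at 1.57, 0.95 and 1.41 and the GTPase GTPBP10 at 1.48, 0.94 and 1.17. The helicase DDX28 was at 0.63, 0.05 and 1.91 and FASTKD2, an RNA-binding assembly factor, at 0.62, 0.57 and 1.47. The pseudouridine synthase RPUSD4 was at -1.02, -0.56 and -0.89, the methyltransferase MRM3 at -1.01, -0.17 and 0.88, MPV17L2 at -0.80, -0.53 and -0.02, and the endoribonuclease YBEY at 0.35, 0.54 and -1.23. The medians of both factor classes in Met- lay above the all-mRNA median of 0.32, and that of the ribosomal proteins below it, a difference that was not tested.

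The nuclear-encoded subunits of respiratory chain complexes and ATP synthase, into which the products of the mitochondrial ribosome are built, also had median ratios below 0. These were -0.53 in Arg-, -0.20 in Leu- and -0.45 in Met- without cycloheximide over 68 or 69 genes, of which 8, 0 and 11 were at least 2-fold lower, beside 5.95%, 2.06% and 5.34% of all mRNAs. NDUFS1, a complex I subunit, was at 0.96, 1.10 and 0.44 in Arg-, Leu- and Met-. ATP5MG and NDUFB8 were the lowest in Arg-, at -1.47 and -1.46, COX6B1 and ATP5MF in Leu-, at -0.96 and -0.88, and ATP5MC3 and NDUFS5 in Met-, at -2.25 and -1.31. NDUFS8 was second highest in Arg- at 0.61, and NDUFA13 was second highest in Leu- at 0.69 and highest in Met- at 0.48.

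Cytosolic ribosomal proteins, which are uncertain because near-identical copies share reads, had medians of -0.24 in Arg-, -0.91 in Leu- and -0.53 in Met- over 79 genes without cycloheximide, with 4, 32 and 12 of them at least 2-fold lower. Beside the shares over all mRNAs, 5.95%, 2.06% and 5.34%, the count in Arg- was near the background. With cycloheximide their medians were -0.63, -1.16 and -1.17. Only 63 of these genes were listed in the shallow Met- library of that series, where the all-mRNA median was 0.89. The read minimum selected that set, so no position among all mRNAs is given for it. In Leu- the cytosolic family was thus lower than the mitochondrial one in both series, at -0.91 against -0.33 without cycloheximide and at -1.16 against -0.34 with it, and in Arg- the medians lay close together, at -0.24 against -0.30 and at -0.63 against -0.73. These differences between the families were not tested.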

How the data were processed

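Ribosome-protected fragments of 8 HEK293T libraries were measured, 1 library for each of 4 media with or without cycloheximide. The authors discarded reads outside their footprint length range and kept reads that mapped uniquely without mismatch; the submitters' processing notes name cutadapt, Bowtie and GRCh38, and the annotation release is not given in the sources used here. The deposited values are RPKM per transcript. Transcripts were matched to GENCODE release 44 (96.43% to 96.74% per library found), and the highest transcript of each gene was used in each library. Read numbers were recovered from the steps of RPKM times coding length, where 97.15% to 97.35% of values were whole within 0.01 of a read, and gave exact 95% counting intervals. Ratios were log2 with a pseudocount of 1 and a minimum mean RPKM of 10, and 2-fold was the threshold for counts. No test was made. Footprints that fit more than 1 near-identical copy were lost with the multiply mapped reads.

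Genes named are the 5 highest and 3 lowest members in Suff, the 3 highest and 3 lowest by mean ratio of both series in each starvation, every member 2-fold off in the same direction in both series, MRPL12, DAP3, MRPS12, MRPL45 and MRPL58, and the 2 highest and 2 lowest of each pathway list without cycloheximide; members counted in groups of 11 or fewer were named after their values were seen. Members and lists were chosen with earlier results of these data known. Alternatives tried were unlisted mRNAs as 0, a pseudocount of 0.1, a minimum of 50 or none, summed transcripts, the same transcript in both libraries, centring on all mRNAs and subunits by place. The scripts were tested on simulated data. The software was Python 3.11.15 with pandas 2.3.3, numpy 2.4.6, matplotlib 3.10.9 and scipy 1.17.1.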

Additional observations from a re-analysis of the deposited data

Results flagged for a closer look

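The family's median log2 ratio in Met- lay on opposite sides of 0 in the series, at 0.198 with cycloheximide (46 members) and at -0.113 without it (77 members). The MRPL median minus the MRPS median in Met- also had opposite signs, at -0.646 with cycloheximide and 0.0547 without it. Neither difference was tested, since each value comes from 1 library per condition, and the members with cycloheximide are those that passed the read minimum of the shallow Met- library.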

How the results depend on the processing

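In Arg- in both series and in Leu- with cycloheximide, under each alternative run, counts of members past 2-fold stayed within 1.5 times, differences between the subunits moved by less than 0.2 (log2) and medians stayed within the 95% binomial interval of the median over members. No result moved further with the same transcript in both libraries, with summed transcripts, with no minimum or one of 50 RPKM, or with a pseudocount of 0.1. In Met- with cycloheximide, counting unlisted mRNAs as 0 gave a median of -0.65 and 32 of 74 members lower. Centring on the median of all mRNAs there gave -0.69, with 1 member higher and 16 lower. Placing MRPS30 and MRPS18A with the large subunit gave a difference of -0.28. Taking only mRNAs at least 2-fold above the read minimum in Suff, an alternative chosen after seeing the data, gave -0.58, with 2 higher and 8 lower, and a difference of -0.87. Without cycloheximide, centring gave -0.47 and 7 members lower in Leu-, and -0.43, 1 higher and 11 lower in Met-. No share over all mRNAs was computed for the centred counts or for those with unlisted mRNAs as 0. The series with and without cycloheximide were not used as replicates of each other, and no test paired over them was made. The Met- library with cycloheximide held 538222 reads, so members there under 64 reads have only a bound. Culture, library preparation and sequencing of each library cannot be told apart from its condition.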
